A study of Mus musculus with 20 samples.

Results

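The peaks described here are the 500 widest mycPet-1 binding regions that lie below the top of the score range. Pet-1, encoded by Fev, is an ETS-family transcription factor that in the brain is largely restricted to serotonin (5-HT) neurons, and mycPet-1 is a form of it carrying a Myc tag. Chromatin immunoprecipitation with an anti-Myc antibody followed by sequencing gave a list of 4934 peaks in mm10 coordinates, each with a score from the authors' peak caller, for which no unit is stated. The 500 peaks with the highest scores were set aside, and of the peaks left with a score above 70 the 500 widest were taken. These peaks were thus chosen by their width and score, and both are given only as a description. They are compared with the 500 highest-scored peaks, the other 2419 peaks above 70, and the 1515 peaks with scores of 50 to 70.

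The series holds 20 samples of C57BL/6 mice in 8 groups. Of these, 1 is the precipitate and 1 its input, both made from hindbrain tissue carrying the ePet-mycPet-1 and ePet-EYFP transgenes and dissected from rhombomere 4 forward to the border with the midbrain. The protocol gives a Pet-1-/- background and ages E12.5 to E15.5 (E for embryonic day), while another label gives wild type and E12.5 to E14.5. The tissue was dissected, not sorted, so the chromatin also came from cells other than serotonin neurons, and the ePet promoter drives the tagged protein in place of the gene's own locus. The other 18 samples are messenger RNA libraries of EYFP-positive neurons sorted by flow cytometry, 3 a group. Wild-type libraries made with the Clontech kit come from E11.5, E15.5 and postnatal days 1 to 3 (PN), a Pet-1 knockout (Pet-1-/-) at E15.5 was made with the same kit, and wild type and knockout at E15.5 were also made with the NuGEN kit. With 1 precipitate there is no replicate of any peak, and the read depth of the samples is unknown because the files give no read numbers. In the authors' deposited tables Fev read 31.1 FPKM in wild type and 0.422 in knockout with the Clontech kit, and 34.9 and 0.308 with the NuGEN kit. All 8 serotonin neuron markers were detected in every stage library, with sums of 934 to 1388 FPKM at E11.5, 461 to 554 at E15.5 and 476 to 732 at PN. Microglial markers summed to between 2.51 and 25.9 FPKM in the embryonic libraries and to between 103 and 986 at PN, and astrocyte markers to 1.35 to 3.41 FPKM at E11.5, 32.0 to 95.2 at E15.5 and 58.1 to 106 at PN. Their part in any change between stages was not tested. The labels do not say that the 3 libraries of a group came from separate animals or litters, so p-values measure only the spread between these samples.

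ETS factors bind DNA through a conserved domain that reads a GGAA core, most often as CCGGAA, and many promoters rich in CpG dinucleotides carry such sites close to the start of transcription. Pet-1 acts in serotonin neurons beside Gata2, Gata3, Lmx1b, Nkx2-2 and Foxa2 to switch on the genes of serotonin synthesis and transport. Genes for developmental transcription factors such as the Hox and Fox families often sit in long stretches of CpG-rich DNA that reach well past a single start site.

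The promoter stretches below show the CCGGAA letters in 5 of the wide peaks whose promoter windows hold most of them. The windows of Mlycd, Mllt1 and Wasl hold 3 as well, and are not printed. A promoter window here is the 300 bases from 250 before to 50 after a RefSeq start (GRCm38.p6), read only where it lies wholly inside the peak. Only the 250 bases before the start are printed, on the strand of the gene, and capitals mark CCGGAA on either strand (TTCCGG on the strand shown). The Mocs3 stretch is chr2:168230372-168230621 on the plus strand, Panx1 is chr9:15045479-15045728 on the minus strand and Vps52 is chr17:33955550-33955799 on the plus strand. Hspd1 is chr1:55087933-55088182 on the minus strand and Lrrc47 is chr4:154011553-154011802 on the plus strand. 
Mocs3: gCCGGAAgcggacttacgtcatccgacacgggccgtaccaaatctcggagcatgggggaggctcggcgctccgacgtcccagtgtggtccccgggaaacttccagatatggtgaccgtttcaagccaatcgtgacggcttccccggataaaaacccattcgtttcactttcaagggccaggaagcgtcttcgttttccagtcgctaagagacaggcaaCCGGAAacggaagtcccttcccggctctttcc
Panx1: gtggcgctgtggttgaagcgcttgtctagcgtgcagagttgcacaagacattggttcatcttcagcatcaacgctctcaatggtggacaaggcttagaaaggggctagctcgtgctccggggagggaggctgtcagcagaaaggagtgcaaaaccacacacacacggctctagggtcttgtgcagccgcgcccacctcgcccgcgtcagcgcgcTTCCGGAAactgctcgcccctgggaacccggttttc
Vps52: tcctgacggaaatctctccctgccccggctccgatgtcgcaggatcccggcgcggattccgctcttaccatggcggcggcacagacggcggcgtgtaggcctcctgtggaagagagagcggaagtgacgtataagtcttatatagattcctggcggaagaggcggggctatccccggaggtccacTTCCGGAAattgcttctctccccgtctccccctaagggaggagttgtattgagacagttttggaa
Hspd1: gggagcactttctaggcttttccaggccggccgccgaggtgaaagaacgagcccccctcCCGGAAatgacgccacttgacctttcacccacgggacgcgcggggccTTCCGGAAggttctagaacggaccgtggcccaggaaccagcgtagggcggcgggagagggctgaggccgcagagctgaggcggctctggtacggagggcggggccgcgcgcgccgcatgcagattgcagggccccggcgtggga
Lrrc47: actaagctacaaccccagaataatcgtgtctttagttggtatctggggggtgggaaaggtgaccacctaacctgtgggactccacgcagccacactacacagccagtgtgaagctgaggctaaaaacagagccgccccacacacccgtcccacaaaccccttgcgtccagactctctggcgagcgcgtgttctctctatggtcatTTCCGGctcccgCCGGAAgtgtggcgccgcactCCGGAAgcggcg
The Mocs3 and Panx1 windows held 4 CCGGAA each, 2 of them in the bases printed, and the Vps52 window held 3, of which 2 are printed. All 3 of Hspd1 and all 3 of Lrrc47 are printed. In Panx1, Vps52 and Hspd1, 2 of the matches overlap as one palindrome, TTCCGGAA. Hspd1, the mitochondrial chaperone HSP60, shares its peak with Hspe1, its partner chaperone, and the Vps52 peak also holds the start of the ribosomal protein gene Rps18.

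Scores of the 500 wide peaks ran from 71.05 to 247.27 with a median of 147.20, and the lowest score set aside was 247.71. Their widths ran from 1230 to 6145 bases with a median of 1412, against a median of 1295 in the 500 highest-scored peaks, 893 in the other peaks above 70 and 714 in the peaks of 50 to 70. Together they covered 756 kb. The last peaks taken were 1232, 1231 and 1230 bases wide, nearest to the starts of Dync1li1, Dipk2a and Troap. The first 3 left out were all 1230 bases wide, nearest to Vti1a, Pcdh10 and Foxr1, and were parted from Troap by order of chromosome only. Within the 500, Spearman's rho between width and score was 0.26, a value that the limits on both measures shape.

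**Figure D1:**
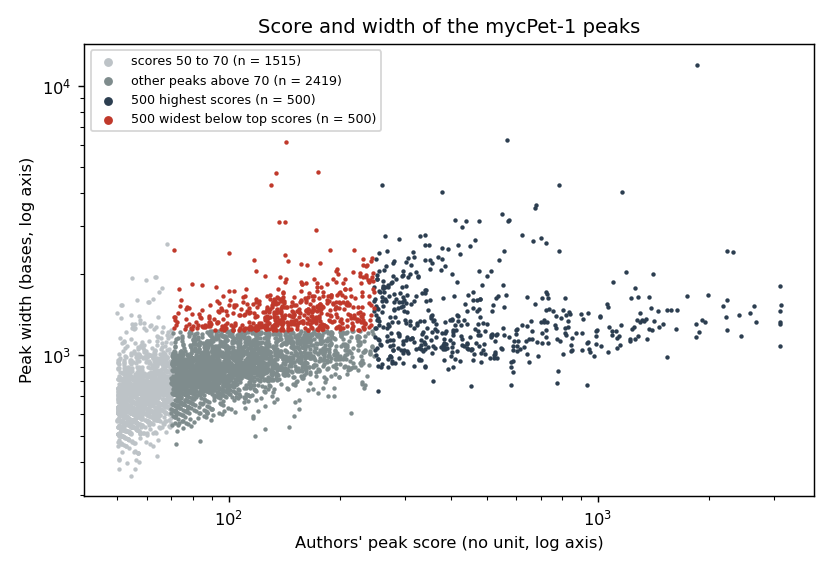
Authors' peak score (horizontal, log axis) against peak width in bases (vertical, log axis) for all 4934 peaks, 1 point a peak, coloured by class. The 500 wide peaks form the band from 1230 bases upwards between scores of 71.05 and 247.27.

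Of the 5 widest of these peaks, 3 lay on clusters of short noncoding RNA genes. The widest of all, 6145 bases at chr6:47760712-47766856, overlapped no gene of the RefSeq table, and it stood in a run of 4 peaks, 3 of them among the 500, that overlapped none. The next, chr1:171077959-171082712 (4754 bases) and chr1:171070316-171075063 (4748 bases), each held 5 transfer RNA genes, those for aspartate, glutamate, leucine and 2 for glycine by their names in RefSeq. Both peaks hold the same 5 kinds in the same order, and the sources used here do not give how reads from near-identical copies were placed. The fifth widest, chr8:123600479-123603600 (3122 bases), held a 5S ribosomal RNA gene, and another peak of the same cluster, chr8:123621368-123623114 (1747 bases), held a further one. Of the 500 peaks, 9 (1.80%) overlapped 21 transfer RNA genes in all, against 0.400% of the highest-scored, 1.98% of the other peaks above 70 and 0.726% of those of 50 to 70. One peak of 1729 bases lay over Rn7sk, which encodes the 7SK RNA that holds back transcription elongation.

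MicroRNA genes lay in 12 of the wide peaks (2.40%), against 0.811% of all 4934 peaks. The share was 0.8% in the highest-scored, 0.785% in the other peaks above 70 and 0.33% in those of 50 to 70. These shares were not corrected for width, which the rule used. The wide peaks covered 756 kb, the highest-scored 740 kb and all 4934 peaks 4797 kb. The microRNA genes in wide peaks included both Mir9-1 (peak chr3:88214670-88216290, score 220.32) and Mir9-3 (peak chr7:79504413-79505692, score 216.81), and Mir124a-2 (peak chr3:17794617-17796076, score 161.72). miR-9 and miR-124 are the best known microRNAs of the vertebrate nervous system, miR-9 in progenitors and miR-124 in neurons. The mature strands made from Mir9-1 and Mir9-3 are the same, and are shown with the seed (bases 2 to 8) in capitals, from RefSeq.
mmu-miR-9-5p: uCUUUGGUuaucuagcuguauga
mmu-miR-9-3p: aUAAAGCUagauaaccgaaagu
The messenger RNA libraries do not measure these microRNAs, so no level is given for them.

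Fewer of the wide peaks than of the highest-scored ones stood at a gene start. Positions were read for the 492 wide peaks outside chromosome 18, which was not analysed here for gene starts. Of these, 303 (61.6%) lay within 1 kb of the start of a protein-coding gene, 131 (26.6%) lay elsewhere in a protein-coding gene, 33 (6.71%) in a noncoding gene and 25 (5.08%) between genes. The share at starts was 76.2% in the highest-scored peaks, 69.7% in the other peaks above 70 and 60.1% in those of 50 to 70. The start itself lay inside the peak in 251 (51.0%) of the wide peaks and in 70.7% of the highest-scored, although a wide peak covers more bases. Measured from the peak's centre, which does not favour wide peaks, 55.1% lay within 1 kb of a start, against 70.3%, 67.0% and 57.6% in the other classes in the same order. In 123 wide peaks (25%) the centre was over 10 kb from every start in the table, near the 24.2% over all peaks. The share was 16.9% in the highest-scored peaks, 21.7% in the other peaks above 70 and 30.3% in those of 50 to 70. These are counts from 1 list, with no replicate and no test.

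**Figure D2:**
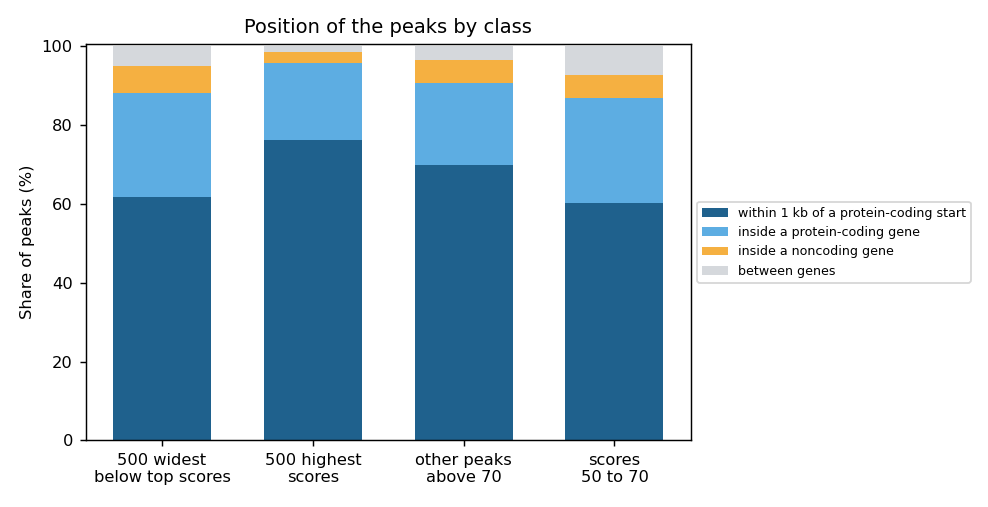
Share of peaks (vertical, percent) by position for each of the 4 classes of peaks, leaving out chromosome 18. The bar of the wide peaks has 61.6% within 1 kb of a protein-coding start and 26.6% inside a protein-coding gene, and the bar of the highest-scored peaks has 76.2% and 19.5%.

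Where a wide peak held a single start it reached further into the gene than upstream of it. In 205 such peaks the median reach was 585 bases upstream and 846 bases downstream of the start, and 141 (68.8%) reached further downstream. In 284 highest-scored peaks the medians were 600 and 594 bases, with 53.5% reaching further downstream. The share was 64.7% in the other peaks above 70 (374 and 510 bases) and 68.0% in those of 50 to 70 (294.5 and 446 bases), close to that of the wide peaks. A further 52 wide peaks had the start outside the peak but within 1 kb, and 40 of these lay on the downstream side, so that they sat over the first part of the gene. The share on the downstream side was 76.9% here, 77.8% in the highest-scored peaks and 66.3% in the other peaks above 70.

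The wide peaks also stood closer to other peaks. Another listed peak lay within 10 kb of 169 of them (33.8%), against 19.8% of the highest-scored peaks, 19.8% of the other peaks above 70 and 19.7% of those of 50 to 70. Within 1 kb the share was 17.2%, against 10.8%, 10.3% and 10.3%. The longest run was the HoxA cluster, chr6:52164016-52266470, where 24 peaks followed each other at gaps under 10 kb, 5 of them among the 500. The HoxA genes encode homeodomain proteins that set position along the body axis, and the widest of the 5 peaks, 2028 bases, held the start of Hoxa7. Pitx1, a homeodomain factor of the hindlimb, had 3 wide peaks in a run of 4 at chr13:55825110-55836358. Runs with 2 or more wide peaks numbered 26 and included those of Tbx2, Sox4, Foxa2, Gfi1 and Dmrta2, all genes of developmental transcription factors. Other runs lay at genes of other kinds, among them Rnf44, Prr7, Scarf2 and Bahcc1, at the transfer RNA and 5S ribosomal RNA clusters, or over no gene.

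The genes within 1 kb of the wide peaks, 353 in all, included a larger share of developmental transcription factors than of most other lists. On a list of 220 such genes, put together with earlier results of these data known, 36 (16.4%) had their start within 1 kb of a wide peak, against 2.02% of all 17492 genes with a start in the table. The highest-scored peaks reached 27 (12.3%) of the same list, and all peaks together 113 (51.4%). Counted by peak, the nearest start within 10 kb belonged to this list for 63 of 492 wide peaks (12.8%), 8.54% of the highest-scored, 5.20% of the other peaks above 70 and 4.05% of those of 50 to 70. Of the 63, 15 (23.8%) held a start of a protein-coding gene, against 19.2% of such peaks over the whole list, and the others lay beside it or over the body of the gene. Within the 500 the count followed width, a value the rule used: the 125 widest had 23 such peaks (18.9%), the next 125 had 20 (16.3%), and the third and the last 125 had 10 each (8.2% and 8.0%).

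Replication-dependent histone genes, which package newly copied DNA, were also present, with 11 of 62 (17.7%) within 1 kb of a wide peak and 3.23% at a highest-scored peak. They fell into 5 peaks on chromosome 13, so the 11 genes are not 11 separate observations. The peak chr13:21809486-21811013 (1528 bases) alone lay within 1 kb of the starts of H2ac23, H2bc23 and H4c17. Ribosomal protein genes were reached less by the wide peaks (5 of 67, 7.46%) than by the highest-scored ones (23.9%). Zinc finger genes had 3 of 369 (0.813%), solute carriers 1 of 290 (0.345%) and synaptic vesicle genes 0 of 72, and the shares at any peak were 29.5%, 19.7% and 23.6%. The histone list, like those of translation factors (6 of 55) and of heat shock and DnaJ chaperones (5 of 60), was added after the values had been seen.

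Among the transcription factors known for serotonin neurons, 6 of the 13 with a start in the table lay within 1 kb of a wide peak, and each of the 13 lay within 1 kb of some listed peak. They were Gata3, Lmx1b, Foxa2, Hmx3, Pou3f2 and Sox4. In every one of these the start stood outside the peak. The Pou3f2 peak (chr4:22486601-22488353) began 13 bases from the start and that of Foxa2 (chr2:148043962-148045401) 63 bases, both on the downstream side. The Gata3 peak (chr2:9876429-9877869) stood 731 bases and the Sox4 peak (chr13:28951612-28953049) 650 bases downstream, and the Hmx3 peak (chr7:131541423-131542775) 188 and the Lmx1b peak (chr2:33641729-33643093) 631 bases upstream. Foxa2 and Sox4 each had a second wide peak further off, with its centre 6.23 kb and 5.36 kb from the start. Gata2 had a wide peak 1258 bases from its start (chr6:88195909-88197406) beside a highest-scored peak that held the start, and Hmx3 likewise had a highest-scored peak over its start. The genes that make, carry and break down serotonin, 12 with a start in the table, and the 11 serotonin receptor genes had no wide peak within 1 kb. Over the whole list of peaks, 0 of the 12 and 1 of the 11 (9.09%) lay within 1 kb of any peak. Of the ETS factor genes 1 of 16 had a wide peak within 1 kb, Elf1, whose level was 0.846 FPKM or less in every stage library.

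Promoter windows inside the wide peaks were CpG-rich, as in the other classes of peaks, and GC boxes were more frequent in them than in the windows of other peaks. A window was available for 219 wide peaks. Their median GC content was 65% and their median ratio of observed to expected CpG was 0.887. By a GC content over 50% and a ratio over 0.6, 196 of them (89.5%) were CpG-rich, against 44.9% of 21263 protein-coding promoters. The share was 92.1% for the highest-scored peaks, 90.2% for the other peaks above 70 and 86.3% for those of 50 to 70. The GC box GGGCGG, the letters read by Sp1 and its relatives, was in 77.2% of the windows of wide peaks, against 65% for the highest-scored, 63.9% for the other peaks above 70 and 70.6% for those of 50 to 70. All promoters had it in 46.2% and CpG-rich promoters in 77.0%, so the share in the wide peaks lay close to that of CpG-rich promoters at large.

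CCGGAA was in 84 of the 219 windows (38.4%). This lay near the share in the highest-scored peaks (37.2%) and under those of the other peaks above 70 (56.6%) and of the peaks of 50 to 70 (44.1%). All promoters had it in 18.7% and CpG-rich promoters in 31.3%. The longer CCGGAAG, which contains it, was in 27.9% of the windows of wide peaks, 26.3% of the highest-scored and 44.1% of the other peaks above 70. The core GGAA, which CCGGAA also contains, was in 94.5%, against 95.7% of all promoters, a window length at which nearly every promoter has it. GATAAG, read by GATA factors, was in 4.11%, and CANNTG, the E-box, in 60.7%, against 6.92% and 69.0% of all promoters. Over the windows of all peaks the shares were 3.64% and 60.3%, near those of the wide peaks. Motifs were searched on both strands. Of the 122 CCGGAA in the wide peaks, 83 (68.0%) lay from 100 bases before the start onwards, against 72.6% in the highest-scored and 76.0% in the other peaks above 70. Only 7 of the windows belonged to developmental transcription factors, and 2 of the 7 held CCGGAA. The windows describe wide peaks at promoters only, and the sequence of the other 281 peaks was not analysed here.

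**Figure D3:**
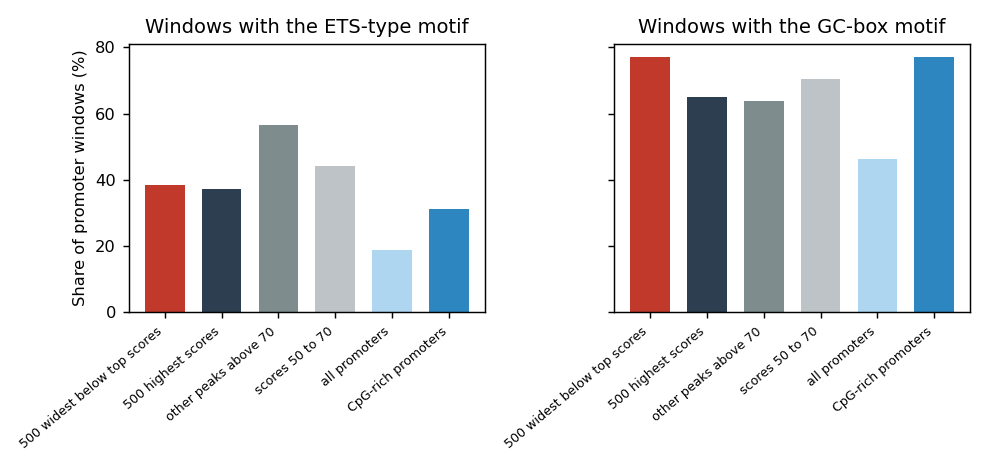
Share of 300-base promoter windows (vertical, percent) that hold CCGGAA (left) or GGGCGG (right), for windows inside each class of peaks, all protein-coding promoters and CpG-rich promoters. The wide peaks stand at 38.4% on the left, near the highest-scored peaks, and at 77.2% on the right, near the CpG-rich promoters.

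Most genes at the wide peaks were expressed in the sorted neurons, and a part stayed below 1 FPKM throughout. Of the 353 genes, 340 were in the expression matrix, whose unit is FPKM (fragments scaled to transcript length and to the mapped fragments of a library). Their median was 7.74 FPKM at E11.5, 6.14 at E15.5 and 6.22 at PN, against 0.575, 0.673 and 1.03 over all genes in the table. Genes at the other classes of peaks were also well above all genes. The medians were 9.96, 9.47 and 8.12 FPKM at the highest-scored peaks and 7.47, 7.33 and 6.54 at the other peaks above 70. At the peaks of 50 to 70 they were 6.26, 5.56 and 5.58. In each of the 9 libraries between 75.3% and 80.3% of the 340 genes reached 1 FPKM, where 42.6% to 50% of all genes did. Rps18, a component of the small ribosomal subunit (mean 4820 FPKM at E11.5), Actg1, a cytoplasmic actin (4305 FPKM), and Eef1a1, the main elongation factor of translation (3575 FPKM), had the highest means. Below 1 FPKM at every stage were 51 of the 340 (15%), against 9.81% of the genes at the highest-scored peaks, 8.76% at the other peaks above 70 and 10.7% at those of 50 to 70. Replication-dependent histone genes, several of which share a peak, made up 9 of the 51. By width, a value the rule used, 23.0% of the genes at the 125 widest peaks were below 1 FPKM at every stage. The share was 20.2% and 11.6% in the next groups, and 7.29% at the 125 narrowest. These shares are given as a description only. Which genes could be tested for change was thus set by their level, and 287 of the 340 passed the filter.

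Developmental transcription factors made up 24 of the 51 genes that stayed below 1 FPKM. Of the 36 at wide peaks, 24 (66.7%) were below 1 FPKM at every stage, close to the 69.4% over all peaks. Hoxa7, Vax1, Nkx2-4, Lhx8, Foxd3, Barx1, Dmrta2 and Dmrt2 were listed at 0 in every stage library, and all are known for roles in other parts of the embryo. A further 66 wide peaks had no protein-coding start within 1 kb of the peak but one within 10 kb of its centre. Each was given the gene of the nearest start, which is not always the gene it lies in. A peak inside Foxc2 was counted under Mthfsd, and one inside Zic2 under Pcca. Of the 65 nearest genes with a level, 31 were below 1 FPKM at every stage. On the developmental list were 22 of these 31, Nkx2-3, Msx1, Prdm13, Sp8, Otp, Hmx1, Evx2 and Sim1 among them. Foxd3, Dmrta2, Gfi1 and Runx3 are among the 22 and also among the 24 above. The chromatin came from dissected tissue and the RNA from sorted neurons, and in which cells of that tissue the tagged protein sat at these genes was not tested.

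Of the 6 serotonin-neuron factors at wide peaks, 5 were called lower at PN than at E11.5, and for 3 of them (Pou3f2, Hmx3 and Foxa2) that call was lost under some alternatives. Gata3, a zinc finger factor that maintains serotonin neurons, read 296, 181 and 262 FPKM in the E11.5 libraries, 175, 121 and 152 at E15.5 and 73.8, 67.8 and 77.1 at PN. The groups do not overlap, and from E15.5 to PN it fell from 149 ± 27.3 to 72.9 ± 4.69 FPKM (mean ± SD, n = 3), a log2 change of -1.01 with an SE of 0.26 (limma, adjusted p = 0.0173). That call was lost without E15.5 library a or without PN library a or b, while the fall from E11.5 to PN (log2 change -1.71, limma, adjusted p = 0.000403) held in each of 10 alternatives. Lmx1b, a homeodomain factor required for serotonin neurons to differentiate, read 54.1, 19.4 and 21.2 FPKM at E11.5, 5.69, 7.31 and 5.19 at E15.5, and 0.686, 7.18 and 2.50 at PN. All E11.5 libraries lay above all later ones, and the fall from E11.5 to PN had a log2 change of -3.0 (limma, adjusted p = 0.00140, SE 0.54). The fall to E15.5 (log2 change -2.06, limma, adjusted p = 0.0142) was lost when no filter on low values was used. Pou3f2, a POU factor also named Brn2, read 17.3, 47.6 and 16.4 FPKM at E11.5, 4.65, 7.74 and 2.58 at E15.5 and 5.16, 8.66 and 7.96 at PN. Its fall to E15.5 had a log2 change of -2.15 (limma, adjusted p = 0.00481, SE 0.46). That from E11.5 to PN (log2 change -1.62, limma, adjusted p = 0.0198) was lost without E11.5 library b, without PN library a and without the filter on low values.

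Hmx3, a homeodomain factor, read 3.88, 7.71 and 3.70 FPKM at E11.5 and at most 1.64 at E15.5 and 3.08 at PN. Its fall to E15.5 (log2 change -1.45, SE 0.44, limma, adjusted p = 0.0283) was lost in 5 of 10 alternatives, among them those without E11.5 library b and without E15.5 library b or c. Its fall from E11.5 to PN (log2 change -1.35, limma, adjusted p = 0.0395) was lost with a pseudocount of 0.1, without the filter on low values, and without E11.5 library b or PN library a or c. Foxa2, a forkhead factor of the ventral neural tube, read 9.66, 8.57 and 2.04 FPKM at E11.5, 4.37, 3.29 and 2.15 at E15.5 and 0.454, 0.421 and 2.91 at PN. The E11.5 and PN groups overlap, and the call from E11.5 to PN (log2 change -1.75, SE 0.54, limma, adjusted p = 0.0288) was lost without any one of E11.5 library a or b and PN library a or b, and without the filter on low values. Sox4, a factor of young neurons, read 27.2, 17.0 and 20.3 FPKM at E11.5, 17.0, 25.6 and 15 at E15.5 and 16.2, 15.2 and 7.41 at PN, and its log2 change from E11.5 to PN, -0.74, did not pass (SE 0.36, limma, adjusted p = 0.153). On the serotonin list as a whole, which includes these 6, 8 of 13 fell from E11.5 to E15.5 and 11 of 13 from E11.5 to PN, and of the 6 at wide peaks 3 and 5 did. In bulk samples, fewer cells of a type and less RNA per cell cannot be told apart.

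Further developmental factors at wide peaks also fell from E11.5 to E15.5. Uncx, a homeodomain factor, read 70.2, 37.5 and 25.2 FPKM at E11.5, 2.19, 1.63 and 0.752 at E15.5 and 0.392, 0.840 and 0.421 at PN. Its fall to E15.5 was the steepest of all genes at wide peaks (log2 change -4.08, SE 0.42, limma, adjusted p = 5.07e-05), and it held in each of 10 alternatives. Hes6, a basic helix-loop-helix factor that promotes neuronal differentiation, read 272, 206 and 90.4 FPKM at E11.5 and 76.9, 63.9 and 27.5 at E15.5. The groups do not overlap, and its fall (log2 change -1.72, SE 0.48, limma, adjusted p = 0.0194) was lost without E11.5 library a or b or E15.5 library c. Sox2, a progenitor factor, read 22.2, 13.2 and 11.2 FPKM at E11.5 and 5.47, 7.27 and 7.23 at E15.5, a log2 change of -1.06 (limma, adjusted p = 0.0326, SE 0.34) that was lost without any one of E11.5 library a or b or E15.5 library a, b or c. Six3, a homeodomain factor of the forebrain, read 6.33, 3.41 and 2.55 FPKM at E11.5 and at most 0.216 at E15.5. Of the 12 developmental factors tested at wide peaks, limma called 7 lower and 0 higher at E15.5 than at E11.5. The 7 include Lmx1b, Pou3f2 and Hmx3, already described among the serotonin-neuron factors, beside Uncx, Hes6, Sox2 and Six3. Over the list of 220 there were 22 falls and 5 rises among 65 tested.

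**Figure D4:**
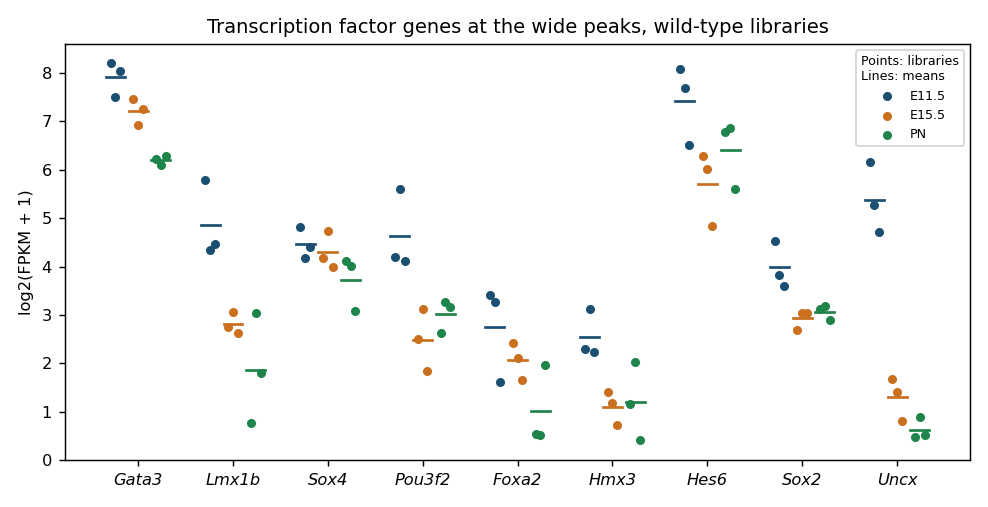
Level of 9 transcription factor genes at wide peaks on the log2(FPKM + 1) scale (vertical) at E11.5, E15.5 and PN, with 1 point a library and a line at the mean of 3 libraries. For Gata3 all libraries of a stage lie below those of the stage before, and for Uncx the E11.5 points lie above all later ones.

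Over all genes at wide peaks, the share that changed between stages was near the background, with more falls than rises. Only from E11.5 to E15.5 did this lean differ in direction from that of the other classes of peaks. From E11.5 to E15.5, 88 of 287 tested (30.7%) were called by limma, against a background of 28.9% of all 11741 genes tested. They split into 38 higher (13.2%) and 50 lower (17.4%), where all genes had 2046 higher (17.4%) and 1348 lower. The median log2 change was -0.10, against 0.11 over all genes. From E15.5 to PN, 44 (15.3%) were called against a background of 20.2%, 17 of them higher (5.92%) and 27 lower (9.41%), where all genes had 10.6% and 9.55%. From E11.5 to PN, 78 (27.2%) were called against a background of 27.4%, 32 higher (11.1%) and 46 lower (16%), where all genes had 2038 higher (17.4%) and 1177 lower. The balance depended on the scaling and on 1 library. With libraries scaled to the same upper quartile, which moved the median of all genes from 0.11 to -0.03, 28 were higher and 65 lower from E11.5 to E15.5, against 1656 and 1694 of all genes. Without E11.5 library c, 44 were higher and 44 lower, with a median log2 change of 0.01 against 0.18 over all genes. The count of 88 was also lower by over 1.5 times without E15.5 library c (24 higher and 30 lower), and that of 44 without E15.5 library a (13 and 14) or PN library a (11 and 11) or b (13 and 15). The share over all genes fell too, to 20.4% in the first case and to between 10% and 12% in the others.

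The steepest rises from E11.5 to E15.5 came from genes of varied function. Spag6, a protein of motile cilia, rose most, from 0.0323, 0.649 and 0 FPKM to 11.6, 12.1 and 8.88 (log2 change 3.30, SE 0.35, limma, adjusted p = 5.95e-05). Tmem17, a protein of the ciliary transition zone, read 0.0680, 8.39 and 5.87 FPKM at E11.5 and 28.3, 30.4 and 21.1 at E15.5 (log2 change 2.73, limma, adjusted p = 0.00714), and its neighbour in rank Tmem43 likewise had 1 E11.5 library near 0. Hspd1, whose promoter is printed above, read 19.2, 31.6 and 23.2 FPKM at E11.5, 114, 137 and 195 at E15.5 and 31.4, 47.4 and 49.6 at PN. It rose to E15.5 (log2 change 2.54, SE 0.31, limma, adjusted p = 0.000147) and fell again to PN (-1.77, SE 0.31, limma, adjusted p = 0.00244). Its partner Hspe1, over the same peak, had means of 297, 315 and 267 FPKM at the 3 stages, and no change of it passed the test. Dnaja1, a co-chaperone of Hsp70, moved like Hspd1, with means of 121, 307 and 110 FPKM, a log2 change of 1.31 to E15.5 and of -1.45 to PN (limma, adjusted p = 0.010 and 0.00865). Other rises among the first 10 were Sfxn3, Ctdspl2, Usp10, Stradb, Nagk and Apbb2, with log2 changes of 1.82 to 2.12.

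Jun and Akt1s1 moved the other way, low at E15.5 only. Jun, an immediate early transcription factor, read 16, 13.2 and 8.39 FPKM at E11.5, 1.66, 1.86 and 1.01 at E15.5 and 15.1, 17.1 and 9.14 at PN. Its log2 changes were -2.41 and 2.53 (SE 0.37 each, limma, adjusted p = 0.000657 and 0.000937). Akt1s1, which encodes a substrate of Akt that restrains mTORC1, had means of 34, 4.09 and 36.1 FPKM and log2 changes of -2.79 and 2.78 (limma, adjusted p = 0.000209 and 0.000440). Eif4a1, the helicase of translation initiation, had means of 712, 140 and 314 FPKM. The other steepest falls to E15.5 were Wasl, Spsb4, H2-Ke6 and Igf2bp3, with log2 changes of -2.51 to -2.98. Igf2bp3, an RNA-binding protein of embryonic tissue, went on to means of 3.86 and 0.801 FPKM, a log2 change of -4.01 from E11.5 to PN (limma, adjusted p = 9.9e-05, SE 0.49).

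From E15.5 to PN the largest rises after Akt1s1, Mblac2 and Jun were Mboat7, Tsen34, Wasl, Camkmt, Epb41l1, Pgp and Slc6a17, with log2 changes of 1.68 to 1.87. Mboat7 and Tsen34 share 1 peak of 2001 bases. Mblac2 went from 3.62, 3.75 and 11.4 FPKM to 33.3, 31.1 and 49.9 (log2 change 2.56, limma, adjusted p = 0.00290). The largest falls besides Hspd1 and Dnaja1 were Jmjd8, Gabpb1, Usp10, Ssrp1, Zfp143, Kin, Eif3a and Ctdspl2, with log2 changes of -1.39 to -1.95. Of these, Wasl, Pgp, Zfp143, Kin, Eif3a and Ctdspl2 lost the call under 2 to 7 of 10 alternatives, and all of them did so without PN library a. All 5 ribosomal protein genes at wide peaks (Rpl19, Rpl38, Rps18, Rps24 and Rps25) fell from E11.5 to PN, with log2 changes of -1.02 to -1.68, as did 49 of the 60 tested on their list. Mpc1, a subunit of the mitochondrial pyruvate carrier, rose from 185 ± 37.3 FPKM at E11.5 to 696 ± 121 at PN (mean ± SD, n = 3), a log2 change of 1.91 with an SE of 0.26 (limma, adjusted p = 0.000192). Tmem17, Mblac2, Spag6, Chchd4, B3galt6, Mdga2, Pcdh7, Nagk and Plxnc1 were the other largest rises from E11.5 to PN. Uncx, Igf2bp3, Lmx1b, Frmd4b, Spsb4, Patz1, Six3, Bahcc1, Rnf44 and Kin were the largest falls.

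**Figure D5:**
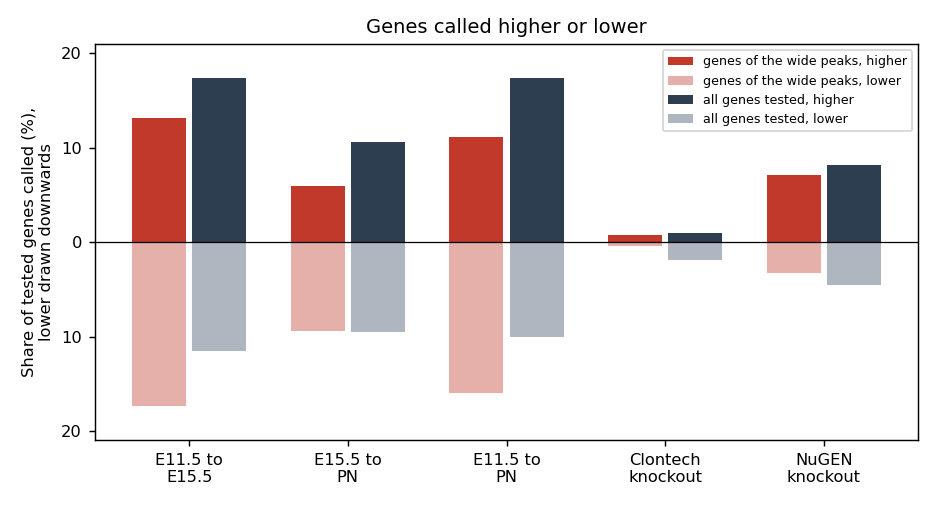
Share of tested genes called higher (upwards) or lower (downwards), in percent, for genes within 1 kb of the wide peaks and for all genes tested, in 3 stage comparisons and the 2 knockout tables. From E11.5 to E15.5 the wide peaks had 13.2% higher and 17.4% lower, where all genes had 17.4% higher and a smaller share lower, and this balance changed with the scaling and without 1 library.

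The share of genes at wide peaks called in the Pet-1 knockout was below the background with one kit and near it with the other. The E15.5 columns of the stage matrix name no kit. Their mean differed from the authors' deposited Clontech wild-type value by a median of 0.10 on the log2 scale over 10364 genes and from the NuGEN value by 0.49, so they were taken as the Clontech libraries, which the knockout table of that kit then shares. In the authors' deposited table for the Clontech kit, 3 of 274 tested genes (1.09%) were called, against a background of 2.82% (0.969% higher and 1.85% lower). Trio, which takes part in axon guidance, read 2.28 FPKM in wild type and 3.96 in knockout in the authors' deposited table (q = 0.0367). Xpo6, the nuclear export receptor of actin, read 3.29 and 6.30 FPKM there (q = 0.0471), and Lrrc58 was lower in knockout at 18.6 against 30.6 FPKM (q = 0.00391). Only the last remained at a q under 0.01. In the authors' deposited table for the NuGEN kit, 29 of 279 genes (10.4%) were called against a background of 12.7% (8.19% higher and 4.56% lower), 20 of them higher (7.17%) and 9 lower (3.23%). At a q under 0.01 the split was 5 and 5. At a q under 0.05 the other classes of peaks had 13.4%, 13.4% and 9.46% called with NuGEN, in the same order as above. Of 271 genes at wide peaks tested in both of the authors' deposited tables, 0 were called in the same direction in both, against 98 of 10501 (0.933%) over all genes, and nothing is read from this count.

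Gabpb1 encodes a subunit of the GABP complex, whose other subunit is an ETS factor. It read 28.1 FPKM in wild type and 12.9 in knockout in the authors' deposited NuGEN table (log2 change -1.13, q = 0.00206) and 24.3 and 14.2 FPKM in the Clontech table (-0.78, q = 0.0507). It was singled out after its values had been seen. Spsb4 was higher in both of the authors' deposited tables, at 3.91 and 7.58 FPKM with NuGEN (q = 0.0180) and 3.48 and 7.18 with Clontech (q = 0.0909). Among the 20 genes higher with NuGEN in the authors' deposited table were Rps18, Rpl38, Rps24 and Rps25, while 39 of 58 tested ribosomal protein genes were higher in that table and 0 in the Clontech table. Hspe1 read 211 and 419 FPKM with NuGEN (q = 0.00206) and 294 and 308 with Clontech (q = 0.914) in the authors' deposited tables.

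None of the serotonin-neuron factors tested at wide peaks, 5 with Clontech and 6 with NuGEN, was called in the authors' deposited tables. Hmx3 was below 1 FPKM in both Clontech groups (0.870 and 0.681) and so was not tested there, and read 0.823 and 1.18 FPKM with NuGEN (q = 0.697) in the authors' deposited tables. Foxa2 read 2.96 and 1.78 FPKM with Clontech (q = 0.460) and 0.856 and 1.51 with NuGEN (q = 0.258) in the authors' deposited tables. Gata3 read 164 FPKM in wild type and 137 in knockout with Clontech (q = 0.433) and 406 and 321 with NuGEN (q = 0.380) in the authors' deposited tables. Lmx1b read 4.89 and 8.19 FPKM (q = 0.378) and 2.54 and 2.15 (q = 0.793) there, in the same order of kits. Sox4 read 15.8 and 19.6 (q = 0.527) and 29.7 and 25.3 (q = 0.565), and Pou3f2 read 3.30 and 4.42 (q = 0.749) and 2.64 and 5.05 (q = 0.121). The deposited group values carry no spread over libraries, and a q above the threshold does not show that a level was the same.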

How the data were processed

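Chromatin of 1 precipitate and 1 input and messenger RNA of 18 sorted-neuron libraries (3 a group) were measured. The peak score in the deposited list comes from MACS, per the file headers, with no scale stated. TopHat2, Cufflinks, BWA and MACS 1.4.2 are named in the submitters' processing notes, without their settings. Expression values are FPKM as deposited by the authors, and the 2 knockout tables hold the authors' group FPKM, log2 fold change, p-value and q-value. Read depth is unknown.

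Peaks were set against RefSeq starts (GRCm38.p6), a table that is not complete, and linked to genes within 1 kb. Stage comparisons used limma 3.58.1 (R 4.3.3) on log2(FPKM + 1), in 1 fit of 9 wild-type libraries with a trended variance, on genes of at least 1 FPKM in 3 libraries. Fold changes are on that scale, which understates low genes. A call needed a Benjamini-Hochberg adjusted p below 0.05 and a 1.5-fold change. Knockout calls used the authors' deposited q below 0.05, 1.5-fold and 1 FPKM in a group. Libraries a to c follow column order. 3 columns of values that match no sample were not used. Sequence inside peaks was read only from promoter windows of 300 bases, in place of the planned centre of each peak, since no genome was used here. The genes named are the 20 widest peaks' genes, serotonin and ETS lists, the 10 largest rises and falls called per stage comparison, genes called alike in both knockout tables, the 5 windows with most CCGGAA, and examples of each list by level. Members and lists were chosen with earlier results of these data known. The fit was tested on simulated data.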

Additional observations from a re-analysis of the deposited data

How the results depend on the processing

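No paired analysis was possible because the expression columns carry no replicate numbers. Of the alternatives for the main values, 67 kept their direction and side of the threshold or stayed within 1.5 times, and 7 did not. Without a filter on low values, 20.1% of genes at wide peaks were called from E11.5 to E15.5 by limma (29 higher, 37 lower), and the share over all genes was then 15.1%, with more genes tested. Each library of the 2 groups compared was left out in turn (6 settings a comparison). This gave 18.9% to 31.3% for E11.5 to E15.5, 7.72% to 12.9% for E15.5 to PN and 18.8% to 26.0% for E11.5 to PN. All genes gave 20.3% to 28.4%, 10% to 14.6% and 19.6% to 26.1%. Libraries of the group not compared share the fit but are not in these ranges. Without E11.5 library a, b or c, all genes gave 25.8%, 20.6% and 22.3% from E15.5 to PN. At wide peaks the lowest for E15.5 to PN came without PN library a, and the values without E15.5 library a and PN library b were 9.47% and 9.79%. A deposited q under 0.01 left 0.365% in the Clontech table and 3.58% in the NuGEN table, where all genes gave 1.58% and 5.11%. Of 69 called changes of named genes, 55 were kept under every setting and 14 were lost under at least 1. None reversed. The cause was not tested, other than fewer samples or more genes in the fit. Reading whole peaks per kb was not run, since only promoter windows were at hand. Groups of 3 libraries were too small to test for outlying samples. Genes with no other listed peak within 1 kb were a setting chosen after seeing the data.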
